A study of Mus musculus with 143 samples.

Results

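B16F10 is a pigmented melanoma line of the C57BL/6 mouse, and the labels place its tumours in the class Resistant for response to an antibody against PD-1. The comparison described here is between 5 B16F10 tumours collected after an isotype control antibody and 3 untreated B16F10 tumours called baseline, so 8 of the 143 libraries of the series, chosen by their titles. All 8 tumours grew from cells placed under the skin of the right lower flank. The isotype tumours came from mice given 2 doses of a mouse IgG1 that served as control, on days 11 and 15, and were taken on day 19, which the labels call 8 days. The baseline tumours carry no treatment, and the day on which they were taken is not given in the sources used here. The added days of growth and the antibody injections therefore cannot be told apart. The protocol describes a single implant per mouse and nothing in the labels says that mice were pooled, so each library was taken as a separate mouse. Were libraries to share a source, the p-values would measure only technical spread. RENCA, a kidney carcinoma line, and CM3, the other line in the series with strong pigment genes, had the same arms and were used to test where B16F10 differed. The B16F10 tumours given muDX400, an antibody against PD-1, appear only as values set side by side, since they share the baseline tumours.

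A growing subcutaneous tumour is a mixture of tumour cells, new vessels, matrix-forming fibroblasts, blood and immune cells, and of the fat, muscle and skin at its edge. B16F10 cells make melanin in melanosomes with the enzymes Tyr, Tyrp1 and Dct, and are known for low surface MHC class I and few infiltrating T cells. Mature fat cells store triglyceride in droplets coated by perilipins and secrete adiponectin, resistin and adipsin, and the transcription factors PPAR-gamma and C/EBP drive their gene programme.

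Expression was given as FPKM, fragments scaled by transcript length and by the fragments mapped in the library, and was compared as log2(FPKM + 1), so a difference of 1 is a doubling for a well expressed gene and understates the change of a low gene. All 8 libraries share a block of sample numbers. The smallest steps in the values of low genes put the depth at 40.0 to 54.6 M fragments per baseline library and 11.1 to 23.8 M per isotype library, with no overlap. Genes with an FPKM of at least 1 numbered 11606 to 11898 per baseline library and 10992 to 11463 per isotype library. The label of the line was borne out by its markers: the 15 melanosome and pigment genes were all above the filter in both groups, and Dct stood at 2352, 2229 and 2170.2 FPKM at baseline and between 1887 and 3211 FPKM in the isotype tumours.

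The isotype tumours had lower levels of fat-cell genes, of many pseudogenes and of a short mitochondrial gene. The pigment, cell-cycle, hypoxia and immune lists had no member past the threshold. Of 11901 genes tested with limma, 110 were lower in the isotype tumours at an adjusted p under 0.05 (0.924% of genes tested) and 1 was higher (0.0084%). The lowest adjusted p was 0.000544, 727 genes had an unadjusted p under 0.05, and the median difference over all genes was -0.06. Every one of the 111 genes had isotype and baseline libraries that did not overlap. By that measure alone, 608 genes lay lower in all isotype libraries (5.11%) and 251 lay higher (2.11%). Among the 110, 40 were lower by at least 2 on the log2 scale. The filter kept genes that reached an FPKM of 1 in 3 or more libraries, which 72 genes met through the 3 baseline libraries alone, and 45 of the 110 are among these. A further 58 genes met it through isotype libraries alone. With the filter set instead on the mean over all 8 libraries, an alternative added after the values were seen, 83 genes were lower and 1 higher. That mean is itself raised by high baseline values, so it does not remove this selection. Gm10774, which entered through the baseline libraries alone, still passed (adjusted p = 0.00101, limma). The number of calls was 9 without baseline replicate 1, 13 without replicate 2 and 22 without replicate 3. In these fits the filter still asked for 3 libraries. The 45 genes at an FPKM of 1 only in baseline libraries therefore could not be tested, and their loss follows from the filter.

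**Figure D1:**
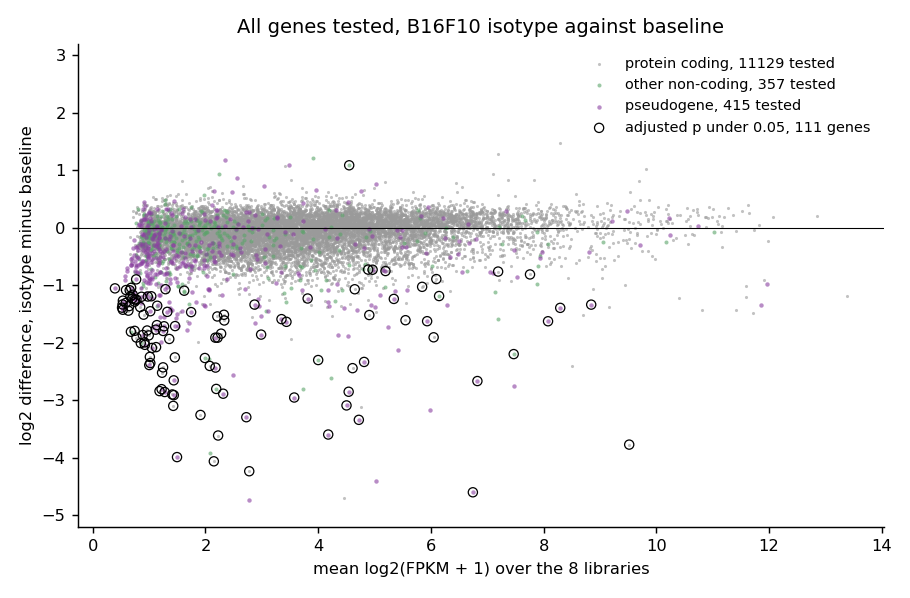
Log2 difference, isotype minus baseline, against the mean log2(FPKM + 1) over the 8 B16F10 libraries, for each of the 11901 genes tested, coloured by annotated gene type, with the 111 genes at an adjusted p under 0.05 circled. The circled genes lie below 0 apart from 1, and 54 of them are pseudogenes.

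Fat-cell genes had the lowest median difference of the 39 lists with a tested member. The adipocyte list holds 10 markers, of which 9 passed the filter on low values, and 7 of these fell in the isotype tumours. All 9 lay lower in every isotype library than in every baseline library, beside 5.11% of all genes, with a median difference of -2.90 beside -0.06 over all genes. Car3, Adipoq, Cidec, Retn, Fabp4, Plin1 and Plin4 passed, and Cfd and Pparg did not. The summed level of the list ran from 296 to 379 FPKM at baseline and from 12.9 to 104 FPKM in the isotype tumours. In tissue, fewer fat cells and less of these RNAs per fat cell cannot be told apart.

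Promoter sequence is shown for 4 of the list's genes, 2 that fell with a match to a C/EBP-like motif, Lep with the palindromic form of that motif, and Adipoq without a match. Sequences are the 250 bases upstream of a RefSeq start site in GRCm38.p6, read 5′ to 3′ on the gene's strand. Capitals mark matches to TTNNGCAA on either strand. Plin1 coats the fat droplet, and its window lies on the minus strand at chr7:79732777-79733026. Cidec fuses fat droplets, and the window of the downstream of its 2 start sites lies on the minus strand at chr6:113434765-113435014. Lep encodes leptin and lies on the plus strand at chr6:29059971-29060220. Adipoq encodes adiponectin and lies on the plus strand at chr16:23146286-23146535.
Plin1: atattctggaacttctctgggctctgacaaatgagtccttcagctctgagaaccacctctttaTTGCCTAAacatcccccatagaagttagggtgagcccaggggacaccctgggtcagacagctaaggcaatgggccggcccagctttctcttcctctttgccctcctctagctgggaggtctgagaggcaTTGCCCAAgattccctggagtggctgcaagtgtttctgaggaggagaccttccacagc
Cidec: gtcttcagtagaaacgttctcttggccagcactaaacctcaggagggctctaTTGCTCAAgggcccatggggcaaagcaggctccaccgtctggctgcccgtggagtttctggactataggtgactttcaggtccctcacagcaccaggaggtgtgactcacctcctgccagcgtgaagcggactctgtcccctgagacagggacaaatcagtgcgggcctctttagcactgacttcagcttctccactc
Lep: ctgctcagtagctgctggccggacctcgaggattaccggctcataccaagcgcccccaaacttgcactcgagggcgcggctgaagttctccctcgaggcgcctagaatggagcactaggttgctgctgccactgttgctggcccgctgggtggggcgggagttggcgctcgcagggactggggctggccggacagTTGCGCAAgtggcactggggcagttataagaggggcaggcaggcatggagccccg
Adipoq: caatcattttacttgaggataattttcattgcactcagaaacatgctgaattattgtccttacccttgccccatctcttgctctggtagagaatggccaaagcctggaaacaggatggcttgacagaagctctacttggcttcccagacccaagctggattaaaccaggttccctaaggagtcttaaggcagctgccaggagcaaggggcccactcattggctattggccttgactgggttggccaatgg

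RefSeq gave 11 upstream windows for 8 of the 10 list genes, and Fabp4 and Car3 were not matched. TTNNGCAA occurred in 4 of the 11 windows (Plin1, Cidec, Lep and Pparg) and in 9.56% of all 32851 windows of that length. In Plin1 the matches begin at 187 and 58 bases before the start site, in Cidec at 198 and in Lep at 55. A pair of AGGNCA copies separated by 1 base, the kind of repeat bound by PPAR-gamma, occurred in none of the 11 and in 0.338% of all windows. A match describes letters in these windows and does not show a bound site.

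Of the secreted fat-cell proteins, Adipoq and Retn passed the threshold. Adipoq stood at 20.1, 19.4 and 25.0 FPKM at baseline and at 0.389, 5.0004, 0.671, 0 and 0.466 FPKM in isotype replicates 1 to 5, a difference of -3.61 ± 0.50 (SE, adjusted p = 0.0106, limma). The isotype libraries all lay below the baseline libraries, with replicate 2 well above the other isotype libraries. Resistin (Retn) read 8.23, 6.99 and 10.02 FPKM at baseline and was listed at 0 in 4 isotype libraries, with 2.08 FPKM in replicate 2 (-2.90 ± 0.38, adjusted p = 0.00793). Adipsin (Cfd), a complement protease, had the highest level of the list, 153, 162 and 190 FPKM at baseline. In the isotype libraries Cfd spread from 0 in replicate 4 to 66.3 FPKM in replicate 2, and its difference of -4.70 ± 1.09 missed the threshold (adjusted p = 0.121) although the groups did not overlap. Leptin (Lep) was under the filter, at 0.593 to 1.06 FPKM at baseline and 0 to 0.332 FPKM in the isotype tumours.

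Genes of the fat droplet and of lipid handling inside the cell were lower as well. Fabp4, the fatty-acid carrier of fat cells, which vessels and macrophages also express, stood at 51.5, 82.6 and 78.0 FPKM at baseline and at 16.8, 15.4, 13.3, 11.7 and 5.87 FPKM in the isotype libraries. Its baseline mean of 70.7 ± 16.8 (SD, n = 3) was 5.61-fold the isotype mean of 12.6 ± 4.23 (SD, n = 5), and its difference was -2.44 ± 0.31 (adjusted p = 0.00691, limma). Cidec fell from 10.9, 19.6 and 13.9 FPKM to 0.188, 3.57, 0.368, 0.0264 and 0.442 FPKM (-3.25 ± 0.46, adjusted p = 0.0107, limma). Replicate 2 again read highest of the isotype libraries. Plin1 fell from between 4.30 and 6.84 FPKM to between 0 and 1.44 FPKM (-2.43 ± 0.31, adjusted p = 0.00691), and Plin4, another droplet coat protein, from between 3.83 and 5.33 FPKM to between 0.0156 and 1.39 FPKM (-2.07 ± 0.29, adjusted p = 0.0106). Pparg, the fat-cell transcription factor, which macrophages also express, read 2.21, 2.30 and 2.28 FPKM at baseline and 1.07, 1.41, 2.14, 0.394 and 1.40 FPKM in the isotype tumours. Its groups did not overlap, but the difference of -0.56 ± 0.24 did not pass (adjusted p = 0.783).

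**Figure D2:**
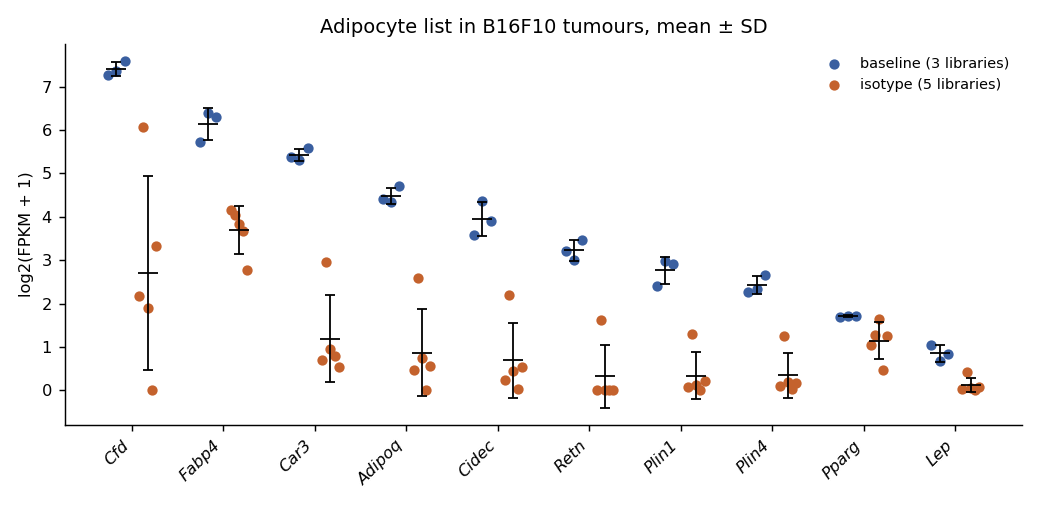
Log2(FPKM + 1) of the 10 adipocyte-list genes in each B16F10 library, with the mean ± SD of the 3 baseline and 5 isotype libraries. The isotype points lie below the baseline points for every gene shown, and the highest isotype point is replicate 2 for all genes but Fabp4 and Pparg.

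Enzymes of fat and liver metabolism were among the largest falls. Car3, carbonic anhydrase 3, a list member abundant in fat and muscle, stood at 40.5, 38.8 and 46.8 FPKM at baseline and at 0.625, 6.82, 0.946, 0.723 and 0.448 FPKM in the isotype tumours, a 21.99-fold higher baseline mean (-4.23 ± 0.50, adjusted p = 0.00479, limma). Cdo1, cysteine dioxygenase, stood at 7.40, 10.1 and 10.7 FPKM and then at 0.0895, 0.675, 0.157, 0.0881 and 0.0983 FPKM, 42.4-fold higher at baseline (-3.10 ± 0.20, adjusted p = 0.000544, limma). These are non-overlapping groups with each isotype value under 1 for Cdo1 and only replicate 2 above 1 for Car3. Cyp2e1, a cytochrome P450 best known from liver and also made in fat, fell from 4.95 to 7.17 FPKM to 0 to 0.859 FPKM (-2.52 ± 0.23, adjusted p = 0.0015). The major urinary proteins Mup22 and Mup18 fell by 4.06 and 2.84 on the log2 scale, and since the Mup genes are near-identical copies, their values cannot be assigned to 1 gene with certainty.

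Further genes of lipid storage past the threshold, named after their values were seen, were Scd1, Dgat2, Lpl, Lipe, Thrsp, Ces1d, Pck1 and Adig. Scd1, which desaturates fatty acids, stood at 134, 130 and 193 FPKM at baseline and at 39.3, 53.5, 33.6, 44.7 and 29.9 FPKM in the isotype tumours, 3.79-fold higher at baseline (-1.90 ± 0.21, adjusted p = 0.00344, limma). Dgat2, the last enzyme of triglyceride synthesis, was 5.09-fold higher at baseline, and Lpl and Lipe, the lipases that load and unload fat, were 3.73-fold and 3.56-fold higher. Their isotype values did not reach 0: Scd1, Dgat2, Lpl and Lipe kept 29.9, 1.55, 1.22 and 1.54 FPKM in the lowest isotype library. The keratins Krt8 and Krt18, the paired filaments of simple epithelium, fell by 1.91 and 1.79 on the log2 scale, from 1.79 to 4.33 FPKM and 1.89 to 3.67 FPKM at baseline to at most 0.0918 and 0.171 FPKM in the isotype libraries. Both keratins reached 1 FPKM in baseline libraries only, as did Cdo1, Cyp2e1, Mup18, Ces1d, Pck1 and Adig, so the filter let them in through the higher group. Ghr, the growth hormone receptor, stood at 8.32, 7.50 and 8.27 FPKM and then at 2.16, 2.69, 2.13, 2.05 and 1.58 FPKM (-1.54 ± 0.16, adjusted p = 0.00232, limma).

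The list mean of log2(FPKM + 1) over the adipocyte genes placed the libraries as the single genes did. It was 3.69, 3.84 and 3.96 in the baseline tumours and 0.90, 2.37, 0.99, 0.50 and 0.95 in the isotype tumours. In the muDX400 tumours, collected on the same day, it was 1.77, 0.62, 0.80, 1.47 and 3.08, also under every baseline value. Leaving out isotype replicate 2 brought the count to 8 of 9, and leaving out any of the 3 baseline libraries brought it to 0 of 9, with list medians of -2.78 to -3.01 that differed little from -2.90. A pseudocount of 0.1 left 2 of 9 past the threshold. The list mean of skin markers was also lower in the isotype tumours, at a low level. The keratinocyte list mean of log2(FPKM + 1) was 0.25 to 0.60 at baseline and 0.10 to 0.23 in the isotype tumours, without overlap, and its part in the result was not tested. Of 12 keratinocyte markers 11 stayed under 1 FPKM in all 8 libraries. The 1 tested, Sbsn, differed by -0.16 and did not pass the threshold. Krt14 read 0.502 to 0.795 FPKM at baseline and 0 to 0.145 FPKM in the isotype tumours. Of 12 skeletal-muscle markers 6 stayed under 1 FPKM, and none of the 3 tested passed. Schwann-cell genes summed to 82.4 to 94.3 FPKM at baseline and 93.3 to 207 FPKM in the isotype tumours. The baseline libraries were also the deeper ones, and the part of depth in the fat-cell result was not tested.

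Pseudogenes made up the largest class of calls. Of 415 pseudogenes tested 54 were lower (13.01%), with a median difference of -0.54, beside 46 of 11129 protein-coding genes (0.413%), with a median of -0.04. Of these, 23 pseudogenes and 18 protein-coding genes reached 1 FPKM in baseline libraries only, so the filter let them in through the higher group. With the filter on the mean over all 8 libraries, a choice made after seeing the data, 38 of 349 pseudogenes and 37 of 10938 protein-coding genes were lower (10.9% and 0.338%). High baseline values raise that mean too, so these shares are not free of the selection. A processed pseudogene shares sequence with its parent gene, and how reads were divided between them is not stated, so these values are uncertain. Rpl37rt, an intronless copy of the ribosomal protein gene Rpl37, read 94.0, 110 and 60.4 FPKM at baseline and 13.8, 8.74, 6.73, 9.47 and 8.27 FPKM in the isotype tumours (-3.09 ± 0.25, adjusted p = 0.000852, limma). Its parent Rpl37 read 392, 305 and 412 FPKM and then 336, 225, 167, 259 and 301 FPKM, with overlap and an adjusted p of 0.783. The groups stayed apart for the copy and met for the parent.

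Further pseudogenes were named after their values were seen. Rpl28-ps1 stood at 480, 599 and 563 FPKM at baseline and at 194, 236, 197, 119 and 157 FPKM in the isotype tumours, 3.03-fold higher at baseline (-1.62 ± 0.22, adjusted p = 0.00894, limma). Its parent Rpl28, a protein of the large ribosomal subunit, read 475 to 643 FPKM at baseline and 473 to 825 FPKM in the isotype tumours, with overlap (difference 0.19, adjusted p = 0.801). Gm10774 read 18.7, 7.16 and 23.9 FPKM at baseline and was listed at 0 in all 5 isotype libraries, so it too entered through the baseline libraries alone. The mean log2(FPKM + 1) over the 54 pseudogenes was 3.56 to 3.91 in the baseline libraries, 1.77 to 1.95 in the isotype libraries and 1.96 to 2.20 in the muDX400 libraries. These 54 pseudogenes were picked by the test in the same B16F10 baseline and isotype libraries. That test favours genes with a small spread within groups, so the narrow ranges there follow in part from the choice. The group with the higher values was also the deeper one. Within groups, baseline replicate 3, the deepest at 54.6 M fragments, had the lowest baseline mean, 3.56. Isotype replicate 1, the deepest of its group at 23.8 M, had the highest isotype mean, 1.95. The part of depth was not tested.

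The pseudogenes were also lower in other models. In RENCA, whose baseline libraries were also the deeper ones (43.4 to 49.2 M against 18.1 to 21.0 M fragments), 41 of the 42 that could be measured were lower in isotype than in baseline tumours, with a median of -1.34 beside -0.32 for all pseudogenes and -0.17 for all genes. In CM3, where the depths were 17.6 to 19.8 M and 15.9 to 19.7 M, 33 of 38 were lower, with a median of -0.79 beside -0.30 for all pseudogenes and -0.08 for all genes. Of the 46 protein-coding genes past the threshold in B16F10, 41 of 42 measured were lower in RENCA (median -1.28) and 11 of 42 in CM3 (median 0.40). These counts are descriptions of genes picked in B16F10, and each model has its own baseline tumours. In CM3 the baseline and isotype libraries carry sample numbers of different blocks, so block and time cannot be told apart there. CM3 isotype replicates 2 and 3 also had higher FPKM totals (784467 and 885333), which were not rescaled.

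Other protein-coding genes also fell, and the 3 given here were named after their values were seen. Csnk2a2, a catalytic subunit of casein kinase 2, read 52.0, 50.6 and 46.6 FPKM at baseline and 30.3, 30.9, 31.7, 27.2 and 25.9 FPKM in the isotype tumours (-0.75 ± 0.12, adjusted p = 0.0214, limma). Dynll1, a dynein light chain, read 316, 311 and 292 FPKM and then 190, 142, 209, 167 and 170 FPKM (-0.81 ± 0.15, adjusted p = 0.0402, limma). Ndufc1, a small subunit of respiratory complex I, read 88.4, 104 and 87.3 FPKM and then 32.9, 39.1, 23.3, 42.4 and 18.5 FPKM (-1.61 ± 0.26, adjusted p = 0.0231, limma). The groups did not overlap for any of them. The only gene that rose was C230062I16Rik, an annotated processed transcript, at 14.3, 12.8 and 13.8 FPKM at baseline and 25.7, 34.6, 33.0, 21.7 and 38.6 FPKM in the isotype tumours (1.09 ± 0.19, adjusted p = 0.0355, limma).

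Mitochondrially encoded genes had a single member past the threshold among 13. mt-Atp8, a short gene for a subunit of ATP synthase, stood at 4131, 4341 and 2948 FPKM at baseline. In the isotype tumours it read 705, 216, 292, 377 and 92.1 FPKM (-3.77 ± 0.55, adjusted p = 0.0132, limma). No isotype value came near the baseline values. mt-Nd4l, another short gene, read 967 to 1126 FPKM and then 80.8 to 482 FPKM, with no overlap, and missed the threshold (adjusted p = 0.13, limma). The list's median was -1.37, and 5 of the 13 lay lower in the isotype tumours without overlap, beside 5.11% of all genes. mt-Co1, the most abundant, read 16520, 20313 and 17050 FPKM at baseline and 13593, 2792, 31211, 7525 and 3310 FPKM in the isotype tumours, with overlap. The share of all FPKM from mitochondrially encoded transcripts was 9.41% to 11.6% at baseline. It spread from 1.79% to 12.1% in the isotype libraries, lowest in replicates 2 and 5. Without any 1 of the baseline libraries mt-Atp8 no longer passed.

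**Figure D3:**
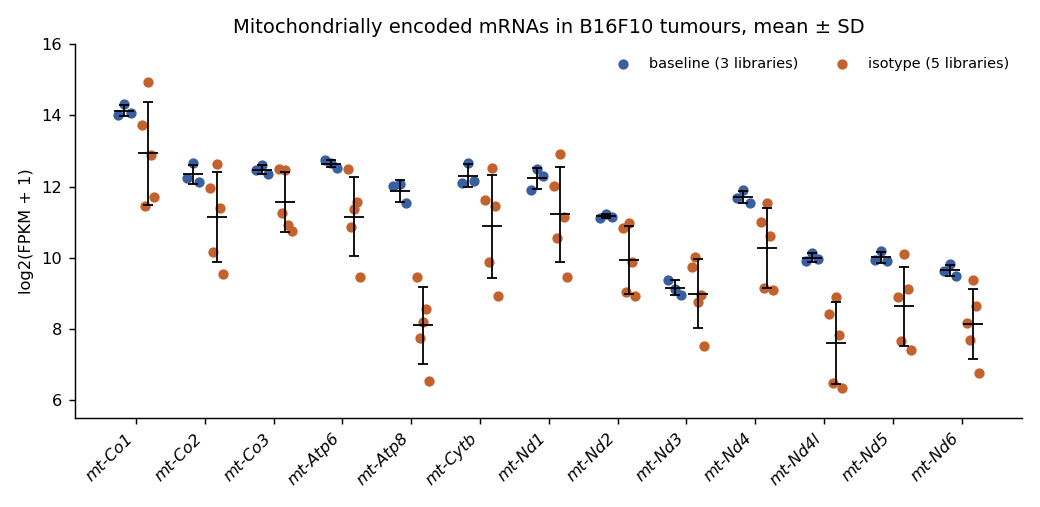
Log2(FPKM + 1) of the 13 mitochondrially encoded genes in each B16F10 library, with the mean ± SD of each group. The axis starts above 0. The groups stand apart for mt-Atp8 and mt-Nd4l, while the isotype points of mt-Co1, mt-Nd1 and mt-Nd3 reach above the baseline points.

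No gene of the tumour cells' pigment programme passed the threshold. The pigment list, which covers melanin enzymes and melanosome proteins, gave a list mean of 8.09 to 8.14 at baseline and 7.99 to 8.35 in the isotype tumours, with no gene of 15 past the threshold and a median difference of 0.03. Tyr, the rate-limiting enzyme of melanin synthesis, read 108, 104 and 93.2 FPKM and then 88.1, 118, 114, 148 and 61.6 FPKM (0.00 ± 0.25, adjusted p = 0.999). Pmel, which forms the melanosome fibrils, read 2571 to 2792 FPKM and then 2715 to 4507 FPKM, and Mlana 739 to 751 FPKM and then 522 to 800 FPKM. Both sets of libraries overlapped for these genes. Mitf, the master regulator of the melanocyte lineage, had 69.1 to 88.9 FPKM at baseline and from 20.1 FPKM in replicate 5 to 125 FPKM in replicate 4 (-0.62 ± 0.47, adjusted p = 0.783). A p above the threshold does not show that levels were equal.

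Proliferation and stress lists likewise had no gene past the threshold, 0 of 15 for mitosis and 0 of 15 for DNA replication. Their medians were 0.06 and -0.01. Mki67, a marker of cycling cells, read 17.4, 7.95 and 7.38 FPKM at baseline and 8.18, 21.98, 2.52, 29.9 and 10.6 FPKM in the isotype tumours, with wide overlap. Top2a, which untangles DNA in dividing cells, read 93.8 to 109 FPKM and then from 37.0 FPKM in replicate 5 to 142 FPKM in replicate 4. The 15 hypoxia and glycolysis genes had a median of 0.19. Ldha, lactate dehydrogenase, read 1917 to 2307 FPKM at baseline and 2342 to 3343 FPKM in the isotype tumours, without overlap and without passing (0.34 ± 0.20, adjusted p = 0.783). Vegfa, the main vessel growth factor and a hypoxia target, was 32.6 to 33.4 FPKM at baseline and 27.2 to 31.4 FPKM in 4 isotype tumours, with 75.3 FPKM in replicate 4.

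The isotype tumours differed from one another far more than the baseline tumours did. Over the genes tested, the correlation of log2(FPKM + 1) was 0.991 to 0.992 among the 3 baseline libraries and 0.864 to 0.977 among the isotype libraries. These are correlations across genes, which are not independent replicates. Isotype replicate 4 was the lowest library for several stroma and myeloid lists. Its list mean was 0.68 for fibroblast, 3.30 for matrix and collagen, 1.96 for macrophage and 1.69 for MHC class II, beside 2.54 to 2.55, 4.57 to 4.76, 3.59 to 3.98 and 3.69 to 4.31 at baseline. It read highest in the erythroid list, at 7.11 beside 4.74 to 5.18. Isotype replicate 3 was the highest library for the interferon and MHC lists, with 4.26 for the interferon-gamma response, 7.11 for MHC class I and 5.90 for MHC class II. Without replicates 4 and 5, a choice made after seeing the data, 133 genes were lower and 4 higher, and the adipocyte count stayed at 7 of 9.

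**Figure D4:**
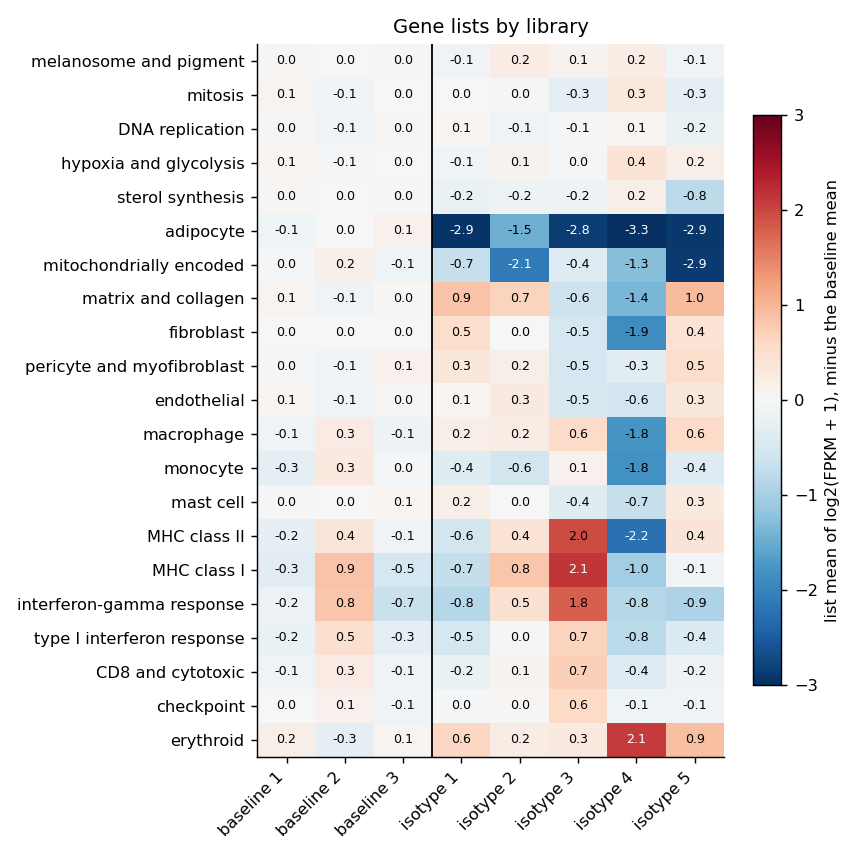
Mean log2(FPKM + 1) of 21 gene lists in each B16F10 library, as the difference from the mean of the 3 baseline libraries, in log2 units by colour and printed value. The adipocyte row is below 0 in all 5 isotype libraries, while the matrix, macrophage, MHC and interferon rows take both signs. Isotype replicates 3 and 4 are the highest and the lowest for MHC class I and class II, and both lie below the baseline mean for matrix, fibroblast and endothelial genes.

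Stroma genes showed that spread rather than a shift. Of 13 matrix, 9 fibroblast, 10 pericyte and myofibroblast and 11 endothelial genes tested, 0 passed. Col1a1, the main fibrillar collagen, read 56.4, 50.6 and 60.0 FPKM at baseline and 144, 124, 32.6, 17.2 and 160 FPKM in the isotype tumours. Replicates 1, 2 and 5 lay above every baseline tumour and replicates 3 and 4 below, so the mean difference of 0.33 ± 0.70 describes no single tumour. Dpt, a skin-fibroblast matrix protein, read 4.94 to 6.19 FPKM at baseline and 0.235 FPKM in replicate 4, with 7.01 FPKM in replicate 1. Pecam1, on endothelial cells, read 16.005 to 18.5 FPKM at baseline and 8.29 to 24.8 FPKM in the isotype tumours. Cldn5, the tight-junction protein of vessels, lay lower in each isotype library, at 0.920 to 5.53 FPKM beside 5.63 to 6.02 FPKM, but did not pass (-0.97 ± 0.35, adjusted p = 0.557).

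Myeloid genes gave no call either. The 12 macrophage genes tested had a median of -0.08. Cd68, a lysosomal protein of macrophages, read 33.5, 42.0 and 39.1 FPKM at baseline and 34.7, 39.2, 69.8, 13.1 and 64.4 FPKM in the isotype tumours, so replicate 4 was lowest and replicates 3 and 5 highest. C1qa, a complement protein of resident macrophages, followed the same order, with 12.2 FPKM in replicate 4 and 226 FPKM in replicate 3 beside 75.6 to 129 FPKM. The 6 monocyte genes tested had a median of -0.75. Chil3, a chitinase-like protein of monocytes and alternatively activated macrophages, was lower in every isotype tumour, at 0.175 to 1.47 FPKM beside 1.99 to 3.36 FPKM, without passing (-1.03 ± 0.28, adjusted p = 0.24).

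Most T and NK cell genes read under 1 FPKM in all 8 libraries, including 7 of 12 on the T-cell list and 8 of 8 on the NK list. None of the 9 regulatory and CD4 genes and none of the 8 NK genes passed the filter on low values, and 2 of 12 T-cell and 2 of 12 CD8 and cytotoxic genes did. Cd8a, the CD8 co-receptor, read 0.0864 to 0.405 FPKM at baseline and 0.0302 to 0.667 FPKM in the isotype tumours, and Pdcd1, the gene for PD-1, 0.0924 to 0.536 FPKM and then 0 to 1.25 FPKM. Replicate 3 was highest for both. Cd274, the gene for the PD-1 ligand PD-L1, read 1.44, 1.97 and 0.886 FPKM and then 0.907, 1.63, 4.36, 2.46 and 0.567 FPKM (0.18 ± 0.38, adjusted p = 0.896). Lck, a kinase of T-cell signalling, read 3.51 to 4.02 FPKM at baseline and 2.16 to 8.55 FPKM in the isotype tumours, and Ccl5, a chemokine, 3.11 to 8.55 FPKM and then 1.86 to 15.3 FPKM. The groups overlapped for both, and neither passed the threshold.

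Interferon-driven genes moved with single tumours in both groups. Psmb9, an immunoproteasome subunit, read 7.16, 29.6 and 6.20 FPKM at baseline and 3.63, 31.1, 161, 3.49 and 8.90 FPKM in the isotype tumours. Baseline replicate 2 and isotype replicates 2 and 3 were the high ones. H2-Ab1, an MHC class II chain of antigen-presenting cells, read 36.8, 65.9 and 48.6 FPKM and then 30.7, 65.8, 201, 3.19 and 76.4 FPKM. Iigp1, an interferon-induced GTPase, read 2.22 to 14.7 FPKM at baseline and from 0.409 FPKM in replicate 5 to 41.7 FPKM in replicate 3. Of 13 interferon-gamma, 12 type I interferon, 12 MHC class I and 7 MHC class II genes tested, 0 passed.

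Red-cell and immediate early genes leaned higher without a call. Of 5 erythroid genes tested 3 lay higher without overlap, beside 2.11% of all genes. Hba-a1, an alpha globin, read 176, 128 and 195 FPKM at baseline and 361, 241, 315, 1333 and 564 FPKM in the isotype tumours (1.48 ± 0.49, adjusted p = 0.457, limma). The highest value was again replicate 4, and without that library the list's median fell from 1.08 to 0.69 and the difference of Hba-a1 to 1.10. Globin genes are near-identical copies, so reads may be divided among them. Junb, an AP-1 factor induced within minutes of stimulation, read 18.3 to 26.4 FPKM and then 28.6 to 54.6 FPKM, and Dusp1, a phosphatase induced with it, 4.16 to 4.90 FPKM and then 5.61 to 7.52 FPKM. Both groups stayed apart for these genes, and neither passed (adjusted p = 0.441 and 0.343). In all, 39 of the 41 lists had no member past the threshold, and of 446 list genes 315 were tested, with 8 lower and 0 higher.

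The comparison with RENCA asked which of these differences were larger in B16F10 than in another line whose libraries carry sample numbers of the same block. Of 14110 genes in the fit of both models, the isotype-minus-baseline difference was more negative in B16F10 for 72 (0.51%) and more positive for 459 (3.25%). Of the genes past the threshold in B16F10 alone, 17 also passed this test, 16 more negative and 1 more positive. None of the 9 adipocyte genes did: their median in RENCA was -1.99, with Adipoq at -1.91 and Car3 at -2.27 there, and the difference between the models for Adipoq was -1.70 ± 0.99 (adjusted p = 0.519, limma). The adipocyte list mean in RENCA was 3.80, 5.55 and 3.96 at baseline and 1.39, 2.80, 3.65, 2.38 and 3.71 in isotype tumours. The RENCA groups did not overlap either, though by a narrow margin.

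Among named genes, Ghr and H2-Q10 passed the test between B16F10 and RENCA. Ghr differed by -0.10 in RENCA, with 5.95 to 11.6 FPKM at baseline and 4.04 to 11.2 FPKM in isotype tumours, and the difference between the models was -1.44 ± 0.35 (adjusted p = 0.0297, limma). H2-Q10, a secreted MHC class I protein best known from liver, differed by -1.08 in B16F10, from 1.06, 1.78 and 1.80 FPKM at baseline to between 0 and 0.443 FPKM, and by 0.82 in RENCA (between models -1.91 ± 0.32, adjusted p = 0.0023, limma). H2-Q10 reached 1 FPKM in B16F10 only in baseline libraries. Its B16F10 fall passed in 10 of the 18 settings that tested it, the main fit included, with adjusted p up to 0.225 (limma). In the other settings it was under the filter. MHC class I genes are close copies, so its reads are uncertain. Rps3a2, annotated as a processed pseudogene, read 9.43 to 23.4 FPKM and then 2.29 to 5.9995 FPKM in B16F10, but 255 to 293 FPKM and 393 to 563 FPKM in RENCA (between models -2.64 ± 0.39, adjusted p = 0.000915, limma). Zfp575, a zinc-finger gene, and Mup18 also passed, but RENCA baseline tumours read at most 0.14 FPKM for Zfp575 and 2.35 FPKM for Mup18, so there was little or no room for a fall there.

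**Figure D5:**
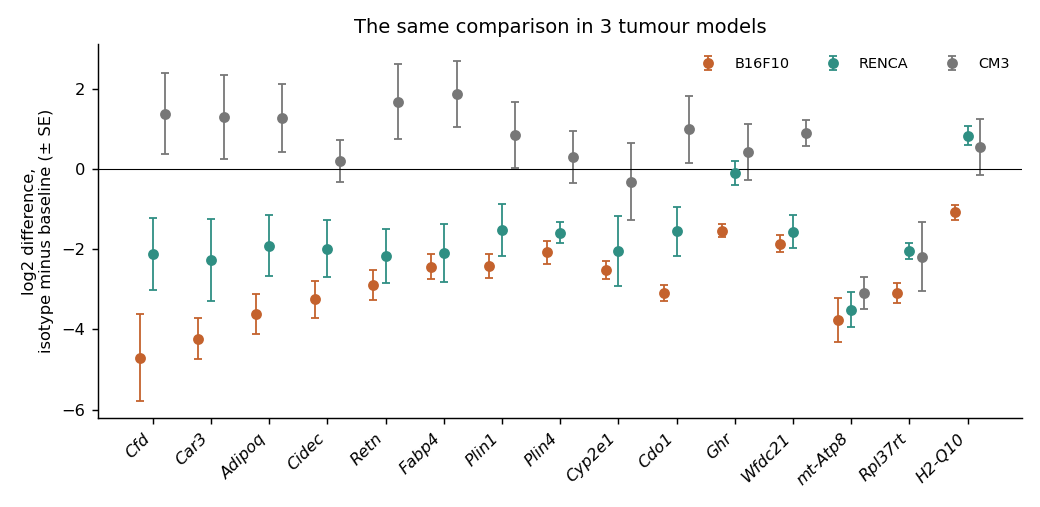
Log2 difference, isotype minus baseline, with its SE, for 15 genes in B16F10, RENCA and CM3, each from its own 5 isotype and 3 baseline libraries. The fat-cell genes on the left lie below 0 in B16F10 and RENCA and mostly above 0 in CM3, while mt-Atp8 and Rpl37rt lie below 0 in all 3 models.

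CM3 has pigment genes like B16F10, but its baseline and isotype libraries carry sample numbers of different blocks, so block and time cannot be told apart on that side. CM3 isotype replicates 2 and 3 had FPKM totals of 784467 and 885333. The other CM3 baseline and isotype libraries had 525381 to 554588, and the main fit did not rescale them. Of 13806 genes, the difference was more negative in B16F10 for 22 (0.159%) and more positive for 14 (0.101%). With median-ratio scaling these counts were 19 and 11. Of the genes past the threshold in B16F10, 4 also passed here, all more negative, among them Mup18 and Wfdc21. For Mup18 the difference between the models, -2.84, equalled the B16F10 difference, so CM3 showed no change of its own to compare. Wfdc21, a secreted protease inhibitor of the whey acidic protein family, fell from 2.46 to 4.11 FPKM to 0 to 0.454 FPKM in B16F10. Wfdc21 reached 1 FPKM in B16F10 in baseline libraries only, so it entered the B16F10 fit through the higher group. In CM3 it read 0.13 to 0.57 FPKM and then 0.31 to 2.96 FPKM (between models -2.77 ± 0.39, adjusted p = 0.00476, limma). Adipocyte genes had a median of 1.27 in CM3 beside -2.90 in B16F10, yet 0 of 10 passed the test between the models, with Adipoq at an adjusted p of 0.0822. The CM3 list mean was 2.01, 2.33 and 5.03 at baseline and 3.41 to 4.75 in isotype tumours, so the CM3 groups overlapped.

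Several macrophage genes differed between B16F10 and CM3. Chil3, Arg1, Mrc1 and Cd163, markers of alternatively activated macrophages, are members that passed the test between the models. Arg1 and Mrc1 were named after their values were seen. The CM3 side cannot be told apart from a block difference, and with a replicate block 0 genes passed this test. Arg1, arginase, read 9.02, 11.2 and 6.84 FPKM at baseline and 13.8, 9.40, 11.0, 3.92 and 9.20 FPKM in isotype tumours of B16F10, a difference of 0.00. In CM3 it read 8.19 to 22.9 FPKM and then 104 to 530 FPKM (between models -3.58 ± 0.66, adjusted p = 0.0313, limma). The scavenger receptor Cd163 read 1.29 to 2.44 FPKM and then 0.0264 to 2.51 FPKM in B16F10 against 1.03 to 2.78 FPKM and then 6.98 to 12.2 FPKM in CM3 (-2.64 ± 0.52, adjusted p = 0.0459, limma). By list, 2 of 12 macrophage and 3 of 12 macrophage-state genes were more negative in B16F10 and 0 more positive, beside the 0.159% and 0.101% of all genes.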

How the data were processed

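The deposited table gives FPKM for 54232 gene identifiers, 54079 of them with a symbol, in 143 libraries of 11 models. Per the labels' protocols, tumours were homogenised in a phenol reagent and ribosomal RNA was removed before stranded libraries were sequenced as paired 50-base reads. How the authors aligned and quantified reads to make these FPKM, and with which build and annotation, is not given in the sources used here. Gene types came from GENCODE M21, and gene coordinates are not printed. Depth was estimated from the smallest steps of low values, assuming fragments of 200 bases, and FPKM give no counts, so no counting interval is given.

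Values were compared as log2(FPKM + 1) by limma (version 3.58.1, R 4.3.3), whose variance prior followed the intensity. Tests were 2-sided, p-values were adjusted by Benjamini-Hochberg over all genes tested, and the threshold was 0.05. Genes entered if 3 or more of the libraries compared reached an FPKM of 1. The log2 scale was computed here from the deposited FPKM. The B16F10 comparison used its 8 libraries, and the comparisons with RENCA and CM3 an interaction contrast over 16. On simulated data for the B16F10 comparison with 11901 genes, the fit recovered 51.5% of 200 genes changed by 1 log2 unit, 86.0% at 2 and 97.5% at 3, with 8.85%, 7.53% and 3.94% of calls false. The simulated noise was normal, independent between genes and of the same spread in both groups. The real isotype libraries spread wider than the baseline ones, so these rates need not hold for the real data.

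Named genes are the 12 largest falls and rises past the threshold with groups that do not overlap and a mean FPKM of at least 5 in the higher group, leaving out unnamed models; the 2 measured members of each list that changed most; 13 fixed genes; and the 5 largest differences each way that passed both in B16F10 and between models. Other names were chosen after their values were seen, and are said to be so or illustrate a list. The members and lists were chosen with earlier results of these data known. Promoter sequences are RefSeq's, and motifs were searched on both strands.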

Additional observations from a re-analysis of the deposited data

Results flagged for a closer look

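Dixon's test on the 5 isotype libraries, run for 71 measures, set apart a single library in 15, where chance sets apart about 1 in 20. Isotype replicate 2 stood above the others in the adipocyte list, with a mean log2(FPKM + 1) of 2.37, and in single fat-associated genes, with log2(FPKM + 1) of 2.97 for Car3, 2.59 for Adipoq, 2.19 for Cidec, 0.74 for Cdo1, 1.62 for Retn and 1.29 for Plin1. These values come from the same library and are not separate observations. Isotype replicate 4 stood apart with list means of 1.96 for macrophage, 2.04 for macrophage states and 1.17 for skeletal muscle, and with 6.25 for Vegfa. Isotype replicate 3 stood apart with 0.55 for the regulatory and CD4 T cell list and 1.14 for the checkpoint list, and with the lowest estimated depth, 11.1 M fragments. Mup18 in isotype replicate 1 stood apart at 0.60, the other isotype libraries being listed at 0.

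By the interaction contrast, the isotype-minus-baseline difference in B16F10 was more negative than in RENCA for Mup18 (-2.29), Rps3a2 (-2.64), Zfp575 (-1.94), H2-Q10 (-1.91) and Ghr (-1.44). It was more negative than in CM3 for Mup18 (-2.84, equal to the B16F10 difference itself, as CM3 showed no change) and Wfdc21 (-2.77). In B16F10, Mup18, H2-Q10 and Wfdc21 reached 1 FPKM in baseline libraries only.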

How the results depend on the processing

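With 111 genes past the threshold in the main analysis of isotype against baseline, the count fell to 64 with a pseudocount of 0.1, 46 with a filter of FPKM at least 5 and 36 with protein-coding genes only (an added choice, with fewer genes tested), and rose to 365 with no filter, 606 with a spread shared over all 88 baseline and isotype libraries (98 higher, 508 lower) and 192 with all 13 B16F10 libraries. Leaving out single libraries gave 9 to 136. Other scalings and limma settings gave 81 to 110, with at most 2 genes higher. Against RENCA, 531 became 228 (pseudocount 0.1), 274 (FPKM at least 5), 340 (filter on the mean), 1144 (no filter) and 1382 (all 88 libraries), and 224 to 724 with single libraries left out. Against CM3, 36 became 14, 15, 20, 111 and 2090 in the same order, 23 without isotype replicates 4 and 5, 10 with protein-coding genes only, and 13 to 54 with single libraries left out. The cause was not tested.

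Nothing in the labels says that replicate numbers pair the tumours. Same-numbered deviations correlated at 0.17, -0.07 and -0.24, and those of different numbers at -0.35 to 0.55. Deviations from a group mean are tied to each other, so these values cannot show whether a number marks a shared source. A replicate block gave 42, 135 and 0 genes in the 3 fits. No named gene past the threshold in the main fit reversed its sign. Some named genes short of it did: over the settings Psmb9 ran from -0.43 to 1.25 and Mki67 from -0.30 to 0.58. Of the tests of named genes past the threshold repeated under other settings, 292 stayed past it and 59 did not. Depth limits genes near an FPKM of 1 most, and there were only 3 baseline tumours.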

Other observations

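The muDX400 tumours enter no comparison here. In muDX400 replicate 2 the list mean of log2(FPKM + 1) was 0.72 for fibroblast, 1.64 for macrophage, 1.42 for MHC class II and 8.33 for erythroid genes, and Vegfa read 64.8 FPKM. Isotype replicate 4 read 0.68, 1.96, 1.69 and 7.11 for the same lists and 75.3 FPKM for Vegfa. In muDX400 replicates 1 and 4 the MHC class I list read 6.95 and 6.71, beside 7.11 in isotype replicate 3 and 4.44 to 5.81 at baseline. Some lists spread less in the muDX400 than in the isotype tumours and others spread more. Matrix and collagen ran from 3.61 to 4.74 beside 3.30 to 5.64, and sterol synthesis from 4.90 to 5.13 beside 4.35 to 5.31. The adipocyte list ran from 0.62 to 3.08 beside 0.50 to 2.37, and type I interferon from 1.34 to 3.08 beside 1.44 to 2.90.

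The share of FPKM from mitochondrially encoded transcripts was 6.48% to 14.1% in the muDX400 tumours. It was 9.41% to 11.6% at baseline and 1.79% to 12.1% after isotype antibody. mt-Atp8 nevertheless read 724 to 1139.6 FPKM in the muDX400 tumours, under each baseline value. By longest annotated transcript, protein-coding genes of up to 600 bases had a median isotype-minus-baseline difference of -0.26 (67 genes), and those over 4000 bases -0.13 (4220 genes), beside 0.06 for those of 1000 to 2000 bases (1834 genes).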
